A study of Mus musculus with 15 samples.

Results

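The genes described here are 52 mouse genes of G1/S control and DNA replication. They were listed by name, with earlier results of these data known. They comprise 21 genes of the G1/S decision (5 cyclins, 3 cyclin-dependent kinases, 5 inhibitors of these kinases, 3 members of the retinoblastoma (RB) family and 5 E2F transcription factors) and 31 genes of the replication machinery. All 52 had a row among the 26301 genes of the count tables. In 3T3-L1 cells, a mouse preadipocyte line that differentiates into adipocytes, polyA RNA was sequenced on day 2 after induction in 5 groups of 3 replicates, 15 libraries in all. All groups carried pMXs-based retroviral vectors and had been induced with 1.67 µM insulin, 1 µM dexamethasone and 115 µg/mL IBMX. The shEmpty cells carried the control vector of the knockdown and the shJmjd1a cells a short hairpin RNA against Jmjd1a (Kdm3a), which encodes the histone H3K9 demethylase JMJD1A. The other 3 groups were shJmjd1a cells that also expressed LacZ (plus LacZ), a hairpin-resistant wild-type JMJD1A (plus WT) or JMJD1A(H1122A), a mutant defective in iron coordination (plus Mut). Each is a stable line selected with antibiotic after retroviral infection, with expression driven by the vector, and the labels do not say whether the 3 replicates were separate infections or cultures. The p-values therefore measure only the spread between these libraries, which may be technical.

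Entry into S phase is controlled by D-type cyclins with CDK4 and CDK6 and by E-type cyclins with CDK2, which phosphorylate RB family proteins and so release E2F factors. E2F targets include the MCM helicase, which is loaded onto origins by ORC, CDC6 and CDT1, and the polymerases, clamp and nucleotide enzymes that work at the fork. Confluent 3T3-L1 preadipocytes are growth-arrested, re-enter the cell cycle after hormonal induction (mitotic clonal expansion) and leave it again as adipocyte genes come on. In bulk RNA, fewer cells in cycle and less RNA per cell cannot be told apart.

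Total counts per library ran from 11437058 to 25523148. No pair of replicates agreed within counting noise (chi-square divided by its degrees of freedom 2.07 to 5.44), so each library counted as 1 replicate. Levels are given as CPM (each library's total set to 1000000 after TMM scaling over the 15 libraries). Kdm3a stood at 174 ± 7.36 CPM (SD, n = 3) in shEmpty and 131 ± 5.75 CPM (SD, n = 3) in shJmjd1a cells, a log2 fold change of -0.42, and at 1697 ± 69.0 CPM (SD, n = 3) in plus WT and 2213 ± 90.1 CPM (SD, n = 3) in plus Mut cells. In plus LacZ cells it stood at 119 ± 2.67 CPM (SD, n = 3). The shJmjd1a and plus LacZ libraries thus kept most of the Kdm3a RNA. The plus WT and plus Mut levels were far above that of shEmpty, and every plus Mut library was above every plus WT library. The rescue groups therefore overexpressed Kdm3a RNA, and not to the same level. The preadipocyte marker Pdgfra averaged 648.5 to 789.6 CPM over the 5 groups. It is 1 of 10 preadipocyte and fibroblast markers, which summed to 12850 to 13070 CPM in shEmpty and 21220 to 27440 CPM in hairpin libraries. Of 11 markers of other cell types, Myod1 and Cd3e had no count and Ptprc, Adgre1 and Epcam at most 1 count in any library. All 11 summed to 4.51 to 8.61 CPM in shEmpty and 3.99 to 20.5 CPM in hairpin libraries. The highest sums were in plus WT libraries. For each comparison, edgeR's quasi-likelihood test was run over every gene that passed a filter on low counts, and genes with a Benjamini-Hochberg adjusted p under 0.05 were called. Of the 52 genes, 51 were tested in every comparison. Cdkn1c, which encodes the CDK inhibitor p57, was removed by the filter with 0 to 5 counts per library.

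The first question was whether the hairpin against Jmjd1a altered these genes. Genes of the replication fork were higher in shJmjd1a than in shEmpty cells, led by the maintenance DNA methyltransferase Dnmt1, the primase Prim1 and the polymerase Pold1, and all 6 MCM helicase subunits were higher. Among G1/S genes the RB family moved in opposite directions, with Rbl1 higher and Rb1 lower. In total, 29 of the 51 genes tested were called higher in shJmjd1a cells, 4 were called lower and 18 were not called. Of all 12272 genes tested, 22.3% were called higher and 23.9% lower. The median log2 fold change was 0.27 over the 51 genes and -0.0032 over all genes. By role, the higher genes were 19 of the 31 replication genes (median log2 fold change 0.28) and 10 of the 20 G1/S genes tested (median 0.15).

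**Figure D1:**
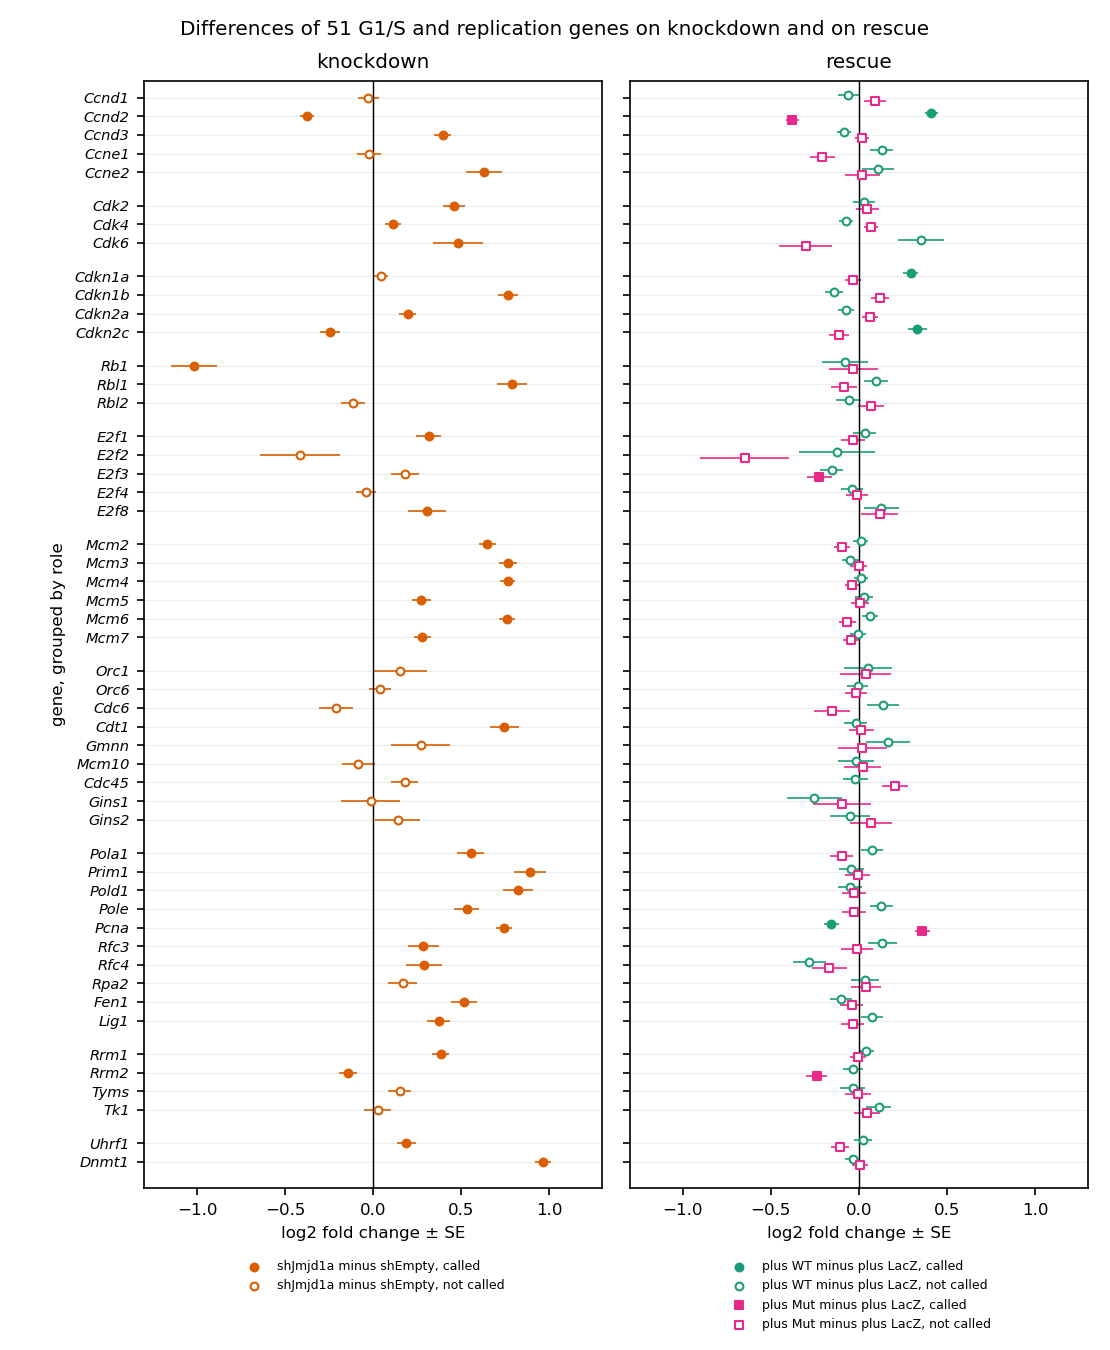
Log2 fold change with its standard error (x axis) for each of the 51 genes tested (y axis, grouped by role), for shJmjd1a against shEmpty (left) and for plus WT and plus Mut against plus LacZ (right). Filled symbols passed an adjusted p of 0.05. On the left 29 genes are filled to the right of 0 and 4 to its left, and on the right most symbols are open and lie near 0.

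The MCM2 to MCM7 proteins form the hexameric ring that unwinds DNA at the fork. Mcm4 had 140, 138 and 144 CPM in the 3 shEmpty libraries and 238, 239 and 245 CPM in the 3 shJmjd1a libraries, so that every shJmjd1a library exceeded every shEmpty library. Its log2 fold change was 0.76 (standard error 0.043, edgeR adjusted p = 1.42e-14). Mcm3 rose from 86.0 ± 2.00 to 147 ± 7.69 CPM and Mcm6 from 108 ± 2.09 to 184 ± 5.05 CPM (SD, n = 3), both also by 0.76 on the log2 scale, and Mcm2 rose by 0.65. Mcm5 and Mcm7 rose less, by 0.27 and 0.28. The 95% intervals of both ended at 0.38, below that of Mcm2, which began at 0.55, and those of Mcm3, Mcm4 and Mcm6, the lowest of which began at 0.66. The 6 subunits were therefore not raised equally. Per length, their levels in shEmpty cells ran from 24.1 CPM per kb of exon for Mcm5 to 39.2 CPM per kb for Mcm4. Part of Mcm7 (321 of 4426 exonic bp) overlaps Ap4m1 on the opposite strand.

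Dnmt1, which copies DNA methylation onto the new strand, is a minus-strand gene of chromosome 9 (20711650 to 20757317 in mm9). It had 121, 133 and 127 CPM in shEmpty and 245, 244 and 261 CPM in shJmjd1a libraries. The groups lay far apart, with a fold change of 1.95 (log2 0.96, standard error 0.047, edgeR adjusted p = 4.47e-16). Uhrf1, which recruits DNMT1 to hemimethylated DNA, was higher by 0.19 on the log2 scale (edgeR adjusted p = 0.00517), from 78.7 ± 1.33 to 90.3 ± 1.95 CPM (SD, n = 3). Prim1, the catalytic primase subunit, had 17.7, 23.8 and 22.1 CPM in shEmpty and 39.1, 39.5 and 40.4 CPM in shJmjd1a libraries. All shJmjd1a libraries were well above the highest shEmpty library, and the log2 fold change was 0.89 (standard error 0.090, edgeR adjusted p = 3.38e-09). Pold1, the catalytic subunit of the lagging-strand polymerase delta (chromosome 7 of mm9, 51788116 to 51804219, minus strand), had 30.6, 30.3 and 24.1 CPM in shEmpty and 48.9, 48.4 and 52.4 CPM in shJmjd1a libraries, again without overlap, a log2 difference of 0.82 (standard error 0.084, edgeR adjusted p = 3.81e-09).

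Promoter sequences of Dnmt1 and Pold1 are shown because, among replication genes whose window holds an E2F motif, these were the called genes with the largest changes. Each window runs from 250 bases before to 50 bases after an annotated start in RefSeq (GRCm38.p6, a different build from the mm9 of the counts). The Dnmt1 window is chr9:20952574-20952873 and the Pold1 window chr7:44548766-44549065, both on the minus strand and written 5′ to 3′. Capitals mark each match to TTTCCCGC, TTTGCCGC, TTTGGCGC or TTTCGCGC on either strand.
Dnmt1: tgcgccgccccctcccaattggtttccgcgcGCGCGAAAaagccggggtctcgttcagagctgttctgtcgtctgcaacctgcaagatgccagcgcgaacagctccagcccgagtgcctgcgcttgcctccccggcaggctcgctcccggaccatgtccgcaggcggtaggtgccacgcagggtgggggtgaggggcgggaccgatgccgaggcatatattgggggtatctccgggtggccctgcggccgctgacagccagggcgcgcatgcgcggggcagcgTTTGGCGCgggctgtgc
Pold1: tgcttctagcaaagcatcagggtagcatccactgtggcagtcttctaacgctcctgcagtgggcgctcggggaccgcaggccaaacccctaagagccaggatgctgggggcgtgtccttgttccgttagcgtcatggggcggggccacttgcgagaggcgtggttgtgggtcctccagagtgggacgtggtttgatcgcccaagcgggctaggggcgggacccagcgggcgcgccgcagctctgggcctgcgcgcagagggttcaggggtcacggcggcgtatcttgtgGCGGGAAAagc
The Dnmt1 window, that of 1 of the 3 starts listed for the gene, held GCGCGAAA at 219 bases before the start and TTTGGCGC at position 34 after it, counting the start as 1. The Pold1 window held GCGGGAAA at position 40. The windows of the other Dnmt1 starts, which lie upstream of the one shown, held no match. The matches shown describe the letters of a window and not a bound site.

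Of the 10 genes for polymerases, the sliding clamp, its loader and partners, 9 were higher in shJmjd1a cells (median log2 fold change 0.52). Pcna, the sliding clamp, had 137, 143 and 136 CPM in shEmpty and 230, 233 and 239 CPM in shJmjd1a libraries, a log2 fold change of 0.74 (standard error 0.044, edgeR adjusted p = 3.76e-14). The polymerase subunits Pola1 and Pole rose by 0.55 and 0.53, the flap nuclease Fen1 by 0.52 and the ligase Lig1 by 0.37. The clamp-loader subunits Rfc3 and Rfc4 rose by 0.28 and 0.29, and the Rfc4 call was lost with DESeq2 and without any one of 4 libraries (shEmpty replicate 1 or 3, or shJmjd1a replicate 1 or 2). Rpa2, a subunit of the single-strand binding protein, was not called at 0.17 (edgeR adjusted p = 0.109). Most exonic bases of Fen1 (1909 of 2422) are shared with Gm10143 on the opposite strand, and the strand setting of the counting is not given in the sources used here, so its value is uncertain.

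Origin licensing and firing genes gave 1 call among 9 genes, Cdt1, the licensing factor that helps load the MCM ring. Cdt1 had 33.8, 28.1 and 28.4 CPM in shEmpty and 52.3, 53.2 and 46.4 CPM in shJmjd1a libraries, which did not overlap, and the log2 fold change was 0.74 (standard error 0.082, edgeR adjusted p = 1.42e-08). Its partner in loading, Cdc6, had a log2 fold change of -0.21 and its inhibitor Gmnn one of 0.27, neither called. With 1 library left out both could be called, Cdc6 without shEmpty replicate 3 (-0.29) and Gmnn without shJmjd1a replicate 1 (0.44), and over all settings Gmnn ranged from 0.07 to 0.44. Cdc45 (0.18) was called with another normalization (RLE size factors), with all 15 libraries in one fit and without shEmpty replicate 2. The values of Orc1, Orc6, Mcm10, Cdc45, Gins1 and Gins2 lay between -0.09 and 0.18, with overlapping groups for each, and the median over the 9 genes was 0.14. Several of these genes are low, such as Gins1 with 6.82 ± 1.02 CPM (SD, n = 3) in shEmpty cells, and their standard errors reached 0.17. Gins2 shares 2758 of 4097 exonic bp with Gse1 on the opposite strand.

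The genes of nucleotide supply gave 1 higher and 1 lower call among 4. Rrm1, the large subunit of ribonucleotide reductase, rose by 0.38 on the log2 scale, from 133 ± 5.28 to 175 ± 6.81 CPM (SD, n = 3). Rrm2, the small subunit of the same enzyme, had 111, 111 and 119 CPM in shEmpty and 102, 109 and 100 CPM in shJmjd1a libraries, and was called lower at -0.14 (edgeR adjusted p = 0.027). The Rrm2 groups did not overlap but lay close, and the call was lost with DESeq2, with a replicate block, with all 15 libraries in one fit and without any one of 4 libraries (shEmpty or shJmjd1a replicate 1 or 3). Thymidylate synthase (Tyms) and thymidine kinase (Tk1) were not called, except Tyms without shJmjd1a replicate 3.

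Among the G1/S cyclins, Ccnd2 fell and Ccnd3 and Ccne2 rose. Cyclin D2 (Ccnd2) had 623, 649 and 599 CPM in shEmpty and 489, 470 and 492 CPM in shJmjd1a libraries. Every shJmjd1a library was below every shEmpty library, and the log2 fold change was -0.38 (standard error 0.039, edgeR adjusted p = 5.4e-09). Cyclin D3 (Ccnd3) rose by 0.39, from 219 ± 9.81 to 290 ± 18.9 CPM (SD, n = 3). Cyclin E2 (Ccne2) rose by 0.63, from 14.96 ± 1.24 to 23.2 ± 1.66 CPM (SD, n = 3), whereas cyclin E1 (Ccne1) had 51.3 and 50.9 CPM and a 95% interval of -0.16 to 0.11. Cyclin D1 (Ccnd1), at 71.9 and 71.1 CPM, had an interval of -0.15 to 0.09. Per kb of exon, Ccnd2 and Ccnd3 stood at 109 and 97.0 CPM in shEmpty and Ccnd1 at 18.7 CPM, so Ccnd2 and Ccnd3 were the main D-type cyclins on this scale. Ccne2 shares 609 of 3495 exonic bp with Ints8, Ccnd3 353 of 2255 with Bysl and Ccnd1 818 of 3835 with Oraov1, each on the opposite strand.

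All 3 kinases were called higher, but not equally firmly. Cdk2, the partner of cyclin E, had 42.5, 44.7 and 44.9 CPM in shEmpty and 59.4, 62.2 and 61.4 CPM in shJmjd1a libraries, and the log2 fold change was 0.46 (standard error 0.065, edgeR adjusted p = 1.06e-06). Cdk6, a cyclin D kinase, rose by 0.48 from a low level of 9.30 ± 1.02 CPM (SD, n = 3). Cdk4, the other cyclin D kinase, was at the threshold with 0.11 (edgeR adjusted p = 0.0477), its groups overlapped, and the call was lost with DESeq2, with a replicate block and when any library but shJmjd1a replicate 3 was left out.

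Of the CDK inhibitors, Cdkn1b (p27) rose the most. It had 64.4, 63.8 and 62.8 CPM in shEmpty and 106, 114 and 106 CPM in shJmjd1a libraries, and the log2 fold change was 0.77 (standard error 0.055, edgeR adjusted p = 2.94e-12). Cdkn2a rose by 0.19, and its counts do not separate the transcripts of its products p16 and p19ARF. Cdkn2c (p18) fell by 0.25 on the log2 scale, from 89.0 ± 3.96 to 75.6 ± 1.70 CPM (SD, n = 3). Cdkn1a (p21) was not called, with 215 ± 5.98 and 223 ± 4.20 CPM (SD, n = 3) and a 95% interval of -0.05 to 0.13. The inhibitor Cdkn1b and its target kinase Cdk2 were thus higher in the same libraries.

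The RB family gave the largest fall among the 51 genes. Rb1, the retinoblastoma protein gene, had 19.4, 18.7 and 20.6 CPM in shEmpty and 8.85, 8.28 and 12.1 CPM in shJmjd1a libraries. The groups were far apart, with a fold change of 0.494 (log2 -1.02, standard error 0.13, edgeR adjusted p = 1.6e-07). Rbl1 (p107, chromosome 2 of mm9, 156971629 to 157030270, minus strand) had 20.95, 23.8 and 25.7 CPM in shEmpty and 42.1, 39.6 and 41.9 CPM in shJmjd1a libraries, and rose by 0.79 (standard error 0.084, edgeR adjusted p = 8.25e-09). Rbl2 (p130), the RB relative typical of quiescent cells, was not called at -0.12. Per kb of exon, Rb1 went from 3.25 to 1.62 CPM and Rbl1 from 3.92 to 6.87 CPM, while Rbl2 had 6.81 and 6.36 CPM. Rb1 shares 408 exonic bp with Lpar6 and 488 with Rcbtb2, out of 6015, on the opposite strand. The Rbl1 promoter is shown as the G1/S gene with an E2F motif and the largest called change (RefSeq, GRCm38.p6, chr2:157204485-157204784, minus strand, capitals mark the motif).
Rbl1: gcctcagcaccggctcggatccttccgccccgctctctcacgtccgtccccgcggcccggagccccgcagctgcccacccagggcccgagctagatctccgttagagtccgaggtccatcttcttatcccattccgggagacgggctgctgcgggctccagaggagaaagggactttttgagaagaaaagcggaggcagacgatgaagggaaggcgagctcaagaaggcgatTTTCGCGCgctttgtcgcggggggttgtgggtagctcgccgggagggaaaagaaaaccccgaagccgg
The match TTTCGCGC began 18 bases before the start.

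E2F factors were called in 2 of 5 cases. The activator E2f1 had 47.6, 43.5 and 44.1 CPM in shEmpty and 61.7, 51.8 and 55.8 CPM in shJmjd1a libraries, a rise of 0.31 (standard error 0.072, edgeR adjusted p = 0.000643). The repressor E2f8, itself known as an E2F target, rose by 0.30 (edgeR adjusted p = 0.0228), a call lost with DESeq2 and without any one of shEmpty replicate 2 or 3 or shJmjd1a replicate 1. E2f3 (0.18, called with RLE size factors, with all 15 libraries in one fit and without shJmjd1a replicate 2) and E2f4 (-0.04) were not called, nor was E2f2 (-0.42, standard error 0.23), the lowest of the 51 genes per length at 0.923 CPM per kb in shEmpty.

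**Figure D2:**
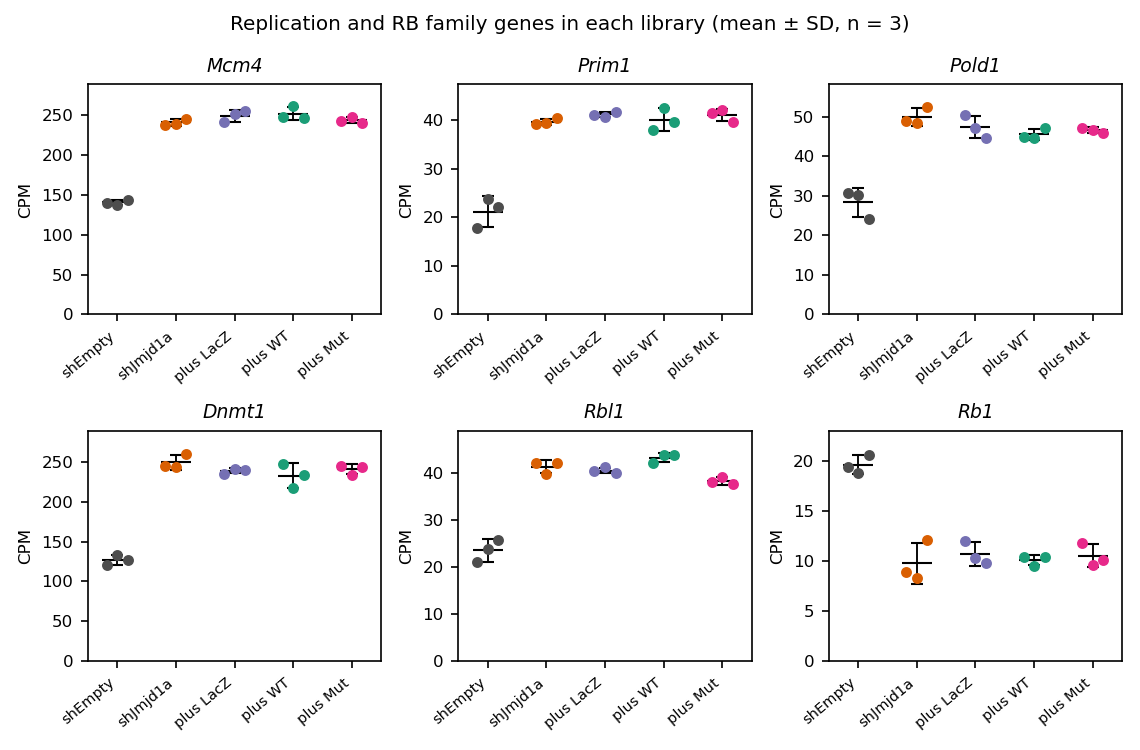
CPM (y axis, from 0) of 6 genes in each of the 15 libraries, by group (x axis), with the mean and SD of 3 replicates in black. For Mcm4, Prim1, Pold1, Dnmt1 and Rbl1 the 3 shEmpty libraries lie below the other 12, and for Rb1 they lie above them.

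Promoter windows were listed in the RefSeq table for 41 of the 52 genes. An E2F motif (the 4 octamers above, either strand, in any listed window of the gene) was present in 18 of the 41 (43.9%), against 704 of the 27025 genes of the table (2.60%) and 464 of 9476 (4.90%) among genes tested on knockdown that had a window. It was present in 14 of 26 genes called higher in shJmjd1a cells (53.8%) and in 4 of 15 of the others (26.7%). Among the 31 replication genes it was found in 13 of 26 with a window, and among the 21 G1/S genes in 5 of 15. In the lists described below, it was found in 14 of 48 further replication and G1/S genes (29.2%). Of 19 mitosis genes with a window it was found in 1 (5.26%), although most mitosis genes were higher in shJmjd1a cells. The windows of Prim1, Pcna, Mcm2 and Cdkn1b, all higher in shJmjd1a cells, held none of these letters, and those of Cdc6, Orc1, E2f2 and E2f3, which were not called, held 1 match each.

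Other genes with related roles were described by count. Of 57 further replication and G1/S genes, 31 were higher and 3 lower in shJmjd1a cells, with a median log2 fold change of 0.31. The largest changes were in the atypical repressor E2f7, which rose by 1.05 (standard error 0.14), in the chromatin assembly subunit Chaf1b (0.70) and in Dtl (0.68), the substrate adaptor that directs CDT1 to destruction. The 3 lower genes were the polymerase epsilon accessory subunit Pole4 (-0.63), Lin52 (-0.38) and Mcmbp (-0.17). Of 24 genes of mitosis, 22 were higher and the other 2 were not called (median 0.39). Over the same libraries, 7 of 9 early adipocyte markers were called lower (median -0.89) and Cebpd was called higher, while 6 of 10 preadipocyte and fibroblast markers were higher and 3 lower. The summed level of the adipocyte markers was 5744 to 5860 CPM in shEmpty and 3360 to 3885 CPM in shJmjd1a libraries, and markers of other cell types summed to at most 8.61 CPM in either. The part of differentiation state in the differences of the cell cycle genes was not tested.

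The rescue libraries were fitted as a set of their own, and the labels do not say whether they were prepared with the others. The shJmjd1a and plus LacZ cells, which both carry the hairpin, were therefore compared to see how far levels can be set side by side. Of the 51 genes, 3 were called higher and 1 lower in plus LacZ cells, against 3.62% and 3.36% of all genes, and the median log2 fold change was 0.0105. Ccnd2 was higher by 0.18 (484 ± 11.7 and 548 ± 14.8 CPM, SD, n = 3, edgeR adjusted p = 0.000794), and Rfc4 and Rrm2 by 0.32 and 0.20, the last 2 calls being lost with DESeq2 and without any one of shJmjd1a replicate 1 or 3 or plus LacZ replicate 2 or 3, which leaves 1 gene higher. Cdkn1a was lower by 0.27 (223 ± 4.20 and 186 ± 9.59 CPM, SD, n = 3, adjusted p = 1.49e-05). None of the genes with the largest changes on knockdown, such as Dnmt1, Prim1, Mcm4, Rbl1 or Rb1, was among the 4. In the same libraries 6 of 9 early adipocyte markers were higher with LacZ (median 0.35). The median over all genes tested lay between -0.0032 and 0.0041 here and in the comparisons that follow.

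The second question was whether wild-type JMJD1A brought these genes back. Against plus LacZ, plus WT cells differed in 4 of the 51 genes: Ccnd2, Cdkn2c and Cdkn1a were higher and Pcna was lower. Over all genes, 4.98% were called higher and 4.52% lower, a share near that among the 51. The median log2 fold change of the 51 genes was -0.0058. Ccnd2 had 565, 544 and 536 CPM in plus LacZ and 734, 721 and 733 CPM in plus WT libraries, without overlap, and a log2 fold change of 0.41 (standard error 0.036, edgeR adjusted p = 3.68e-12). Cdkn2c had 75.9, 83.4 and 80.7 CPM in plus LacZ and 100.6, 104 and 98.2 CPM in plus WT libraries, and rose by 0.33 (standard error 0.053, edgeR adjusted p = 6.89e-06). These 2 were also 2 of the 4 genes that were lower on knockdown, a comparison that shares no library with this one. Rb1 and Rrm2, the other two, were not called (Rb1 -0.08, 95% interval -0.34 to 0.19).

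Cdkn1a rose from 186 ± 9.59 to 228 ± 4.90 CPM (SD, n = 3), by 0.30 on the log2 scale, although it had not been called on knockdown. The plus WT level was near those of shEmpty (215 ± 5.98 CPM) and shJmjd1a cells (223 ± 4.20 CPM, SD, n = 3). All plus LacZ libraries lay below both of these groups. Pcna had 228, 235 and 238 CPM in plus LacZ and 209, 221 and 202 CPM in plus WT libraries, and was lower by a small amount (log2 -0.16, standard error 0.043, edgeR adjusted p = 0.0132). That call was lost without plus LacZ replicate 3 or plus WT replicate 1 or 3, while 2 genes were lower without plus LacZ replicate 1 and 3 genes were lower without plus WT replicate 2. Cdk6 (0.35, edgeR adjusted p = 0.081) and Cdkn1b (-0.14, adjusted p = 0.081) were not called. Cdk6 was called without a filter, with a replicate block and without plus LacZ replicate 1 or plus WT replicate 2, and its log2 fold change ranged from 0.22 to 0.59 over the settings. Rfc4 (-0.28) was not called either. It was called lower with RLE size factors, in these same 4 settings and with all 15 libraries in one fit. Its mean was 16.4 CPM in shEmpty, 20.3 in shJmjd1a, 25.3 in plus LacZ and 20.9 in plus WT cells.

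Most genes that rose on knockdown were near their plus LacZ level in plus WT cells, with Rfc4 (-0.28) and Cdk6 (0.35) furthest from it. Of the 29 genes higher in shJmjd1a cells, 28 were not called with JMJD1A(WT), and the median log2 fold change of the 29 was 0.0133. Over all genes, 4.98% were called higher and 4.52% lower in this comparison, so few calls are not particular to these genes. Shares over all genes higher on knockdown were not computed, for this count or for the intervals below. For MCM2 to MCM7 the log2 fold changes lay between -0.05 and 0.06, and their 95% intervals reached from -0.15 to 0.15 at the widest. For 27 of the 29 genes the interval excluded a fall as large as the estimated rise on knockdown, the other 2 being Cdk4 and Rfc4. The rise was taken as its estimate, without its own interval, in genes selected for being called higher. For Cdkn2a, counted among the 27, the interval reached -0.16 and that of the rise began at 0.098, so a full return lay within both. Dnmt1, for example, had 239 ± 3.18 CPM with LacZ and 233 ± 15.5 CPM with JMJD1A(WT) (SD, n = 3), an interval of -0.12 to 0.05 on the log2 scale. In the same libraries 7 of 9 early adipocyte markers were higher and 1 lower with JMJD1A(WT), and the median of the 24 mitosis genes was -0.05. Of the 57 further replication and G1/S genes only Pole4 (0.26) and the CDK inhibitor Cdkn2b (-0.31) were called. Markers of other cell types summed to 17.3 to 20.5 CPM with JMJD1A(WT) and 6.16 to 6.47 CPM with LacZ, and of 11 markers 2 were tested and 1, Des, was higher (a mean of 15.5 against 4.24 CPM). Their part in these results was not tested.

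**Figure D3:**
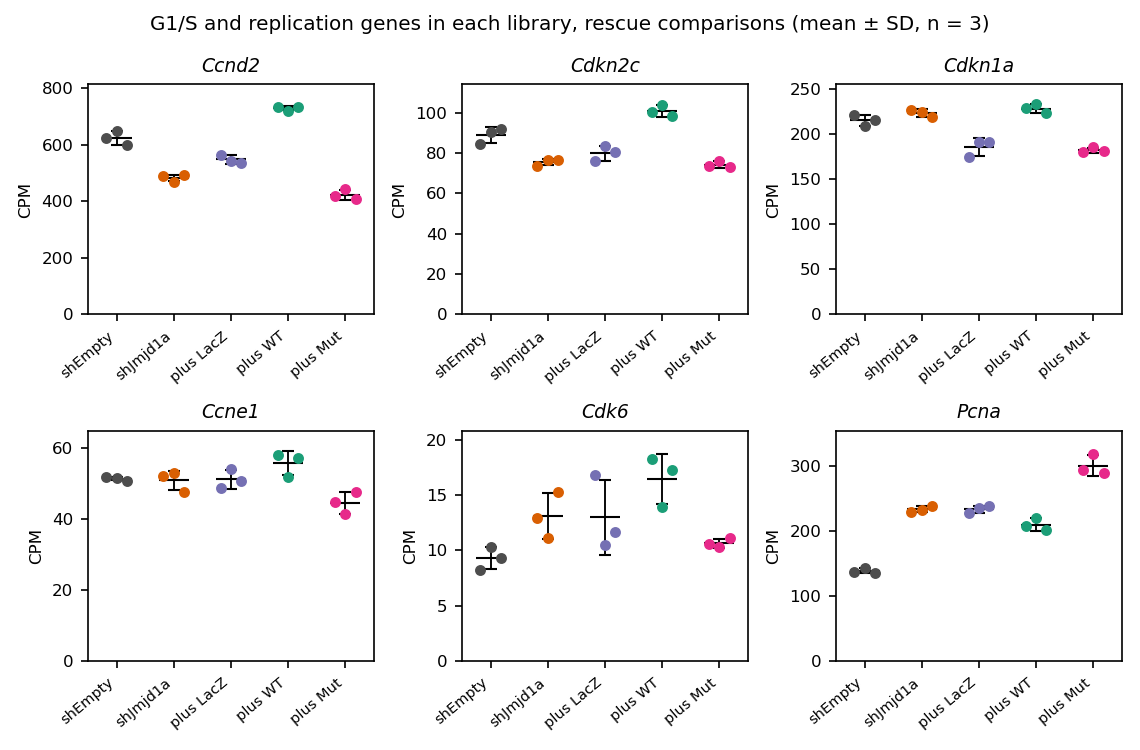
CPM (y axis, from 0) of 6 genes in each of the 15 libraries, by group (x axis), with the mean and SD of 3 replicates in black. The plus WT libraries lie above the plus LacZ and plus Mut libraries for Ccnd2, Cdkn2c and Cdkn1a, and the plus Mut libraries lie above the other 12 for Pcna.

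The third question was whether the effect of JMJD1A required its iron-binding site. Between plus Mut and plus WT cells, 6 of the 51 genes were higher and 9 lower with the mutant, against 12.1% and 11.7% of all genes, and the median log2 fold change was -0.0127. Ccnd2 had 420, 443 and 407 CPM in plus Mut libraries, far below the 721 to 734 CPM of plus WT libraries, and the log2 fold change was -0.79 (standard error 0.037, edgeR adjusted p = 7.69e-22). Cdkn2c fell by 0.44 on the log2 scale and Cdkn1a by 0.33, to 74.2 ± 1.69 and 182 ± 2.82 CPM (SD, n = 3). Cdk6 and Ccne1 were lower too. Cdk6 had 18.2, 13.9 and 17.2 CPM in plus WT and 10.6, 10.3 and 11.1 CPM in plus Mut libraries (log2 -0.65, edgeR adjusted p = 0.00038). Ccne1 had 58.2, 51.9 and 57.2 CPM in plus WT and 44.8, 41.4 and 47.6 CPM in plus Mut libraries (log2 -0.34, edgeR adjusted p = 0.000194).

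Higher with the mutant were Pcna, Cdkn1b, Cdc45, Cdk4, Cdkn2a and Ccnd3. Pcna had 294, 319 and 289 CPM in plus Mut libraries against 202 to 221 CPM in plus WT libraries, a log2 fold change of 0.52 (standard error 0.043, edgeR adjusted p = 2.74e-13). Cdkn1b rose by 0.26, from 91.0 ± 2.39 to 109 ± 5.81 CPM (SD, n = 3). Cdc45, a part of the active helicase, rose by 0.23, Cdk4 and Cdkn2a by 0.14, and Ccnd3 by 0.10 at the edge of the threshold (edgeR adjusted p = 0.0499). Among replication genes, Cdc6 fell by 0.29, Rrm2 by 0.21, Pola1 by 0.17 and Mcm6 by 0.13 on the log2 scale. With a threshold of 0.01, 3 genes were higher and 5 lower. Without plus WT replicate 1 the calls of Ccnd3, Cdk4, Cdkn2a, Cdc45, Cdc6, Mcm6 and Pola1 were lost, and the higher count was 2. Other single libraries also removed calls, namely plus Mut replicate 3 (Ccnd3, Cdkn2a, Mcm6, Cdc6, Pola1), plus Mut replicate 1 (Ccnd3, Mcm6, Pola1, Rrm2), plus Mut replicate 2 (Ccnd3, Cdc45, Pola1), plus WT replicate 2 (Ccnd3, Mcm6, Pola1, Rrm2), plus WT replicate 3 (Ccnd3, Cdkn2a, Pola1) and plus LacZ replicates 2 (Ccnd3) and 3 (Ccnd3, Mcm6). The calls of Ccnd2, Cdkn2c, Cdkn1a, Cdk6, Ccne1, Pcna and Cdkn1b held in each of these fits. Of the 57 further genes, 2 were higher and 10 lower, with the largest changes in the inhibitors Cdkn2d (0.63, at a mean of 3.83 and 5.66 CPM) and Cdkn2b (0.59) and the nuclease Dna2 (-0.47). Of 24 mitosis genes 5 were higher and 19 not called, and of 9 early adipocyte markers 1 was higher and 7 lower. Des was lower with the mutant (2.86 against 15.5 CPM), and its part in these results was not tested.

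Set against plus LacZ, a comparison that shares libraries with those above, the mutant gave 1 higher gene, Pcna (0.36, edgeR adjusted p = 3.46e-08), and 3 lower genes, Ccnd2 (-0.38, adjusted p = 2.49e-10), Rrm2 (-0.24, adjusted p = 0.00931) and E2f3 (-0.22, adjusted p = 0.0325), all by edgeR. Of all genes, 4.78% were higher and 4.46% lower, and the median of the 51 genes was -0.0104. For Ccnd2 the 3 rescue groups were in the order plus Mut, plus LacZ, plus WT, with no overlap between neighbours, and for Pcna in the order plus WT, plus LacZ, plus Mut, also without overlap. Cdkn1a and Cdkn2c did not differ detectably between the mutant and LacZ (intervals -0.12 to 0.06 and -0.23 to 0.0024). The Rrm2 call was lost without plus LacZ replicate 2 or plus Mut replicate 1, each of which left 1 lower gene. That of E2f3 was lost with DESeq2 and without plus LacZ replicate 2 or 3 or any of the plus Mut libraries, and without plus Mut replicate 3 there were 2 higher genes. Among the further genes, Cdkn2d (0.73) and Cdkn2b (0.27) were higher and Skp2 (-0.27), Pole4 (-0.20) and Hells (-0.20) lower. Of 9 early adipocyte markers, 7 were lower with the mutant than with LacZ and 2 were not called. Their part in these results was not tested.

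Cells with the hairpin and JMJD1A(WT) were last compared with shEmpty cells in one fit of all 15 libraries, a comparison chosen after the values were seen, which shares libraries with the comparisons above. Of the 51 genes, 34 were higher in plus WT cells and 3 lower, against 22.8% of all genes in each direction, with a median log2 fold change of 0.27. All 6 MCM genes, all 10 polymerase and clamp genes, Dnmt1 (0.87) and Rbl1 (0.87) were higher and Rb1 was lower (-0.95). Prim1 (0.91), Dnmt1, Mcm6 (0.87), Mcm4 (0.84) and Mcm3 (0.74) were the replication genes with the largest differences. Ccnd2 and Cdkn2c, lower than shEmpty in shJmjd1a cells, stood above it here by 0.23 and 0.18, and Cdkn1b was higher by 0.52. The other two lower genes were Ccnd1 (-0.24) and Rbl2 (-0.19), and the calls of Rbl2, E2f3 (0.18) and Tk1 (0.18) were lost with DESeq2. Of the further 57 genes, 34 were higher and 2 lower, with the largest differences in E2f7 (1.12), Dtl (0.83) and the polymerase subunit Pole2 (0.69), and 22 of 24 mitosis genes were higher. Of 9 early adipocyte markers, 2 were higher and 6 lower in plus WT than in shEmpty cells. Of 10 preadipocyte and fibroblast markers, 7 were higher and 2 lower. The part of differentiation state in these differences was not tested.

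Across the 15 libraries, the 3 shEmpty libraries lay below all 12 hairpin libraries for 27 of the 51 genes, where 16% of all genes tested did so, and above all 12 for 1 gene, Rb1, where 15.6% did so. The 27 included 6 of 6 MCM genes, 9 of 10 polymerase and clamp genes and 1 of 9 licensing and firing genes. The summed level of MCM2 to MCM7 was 641 to 652 CPM in shEmpty libraries and 949 to 1020 CPM in the 12 hairpin libraries. The summed level of the 31 replication genes was 1800 to 1840 CPM in shEmpty, 2561 to 2611 CPM in shJmjd1a, 2550 to 2629 CPM in plus LacZ, 2549 to 2618 CPM in plus WT and 2560 to 2676 CPM in plus Mut libraries. The 4 hairpin groups overlapped one another and shEmpty stood apart. Since only the shEmpty line lacks the hairpin, the hairpin and the separate derivation of that line cannot be told apart.

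**Figure D4:**
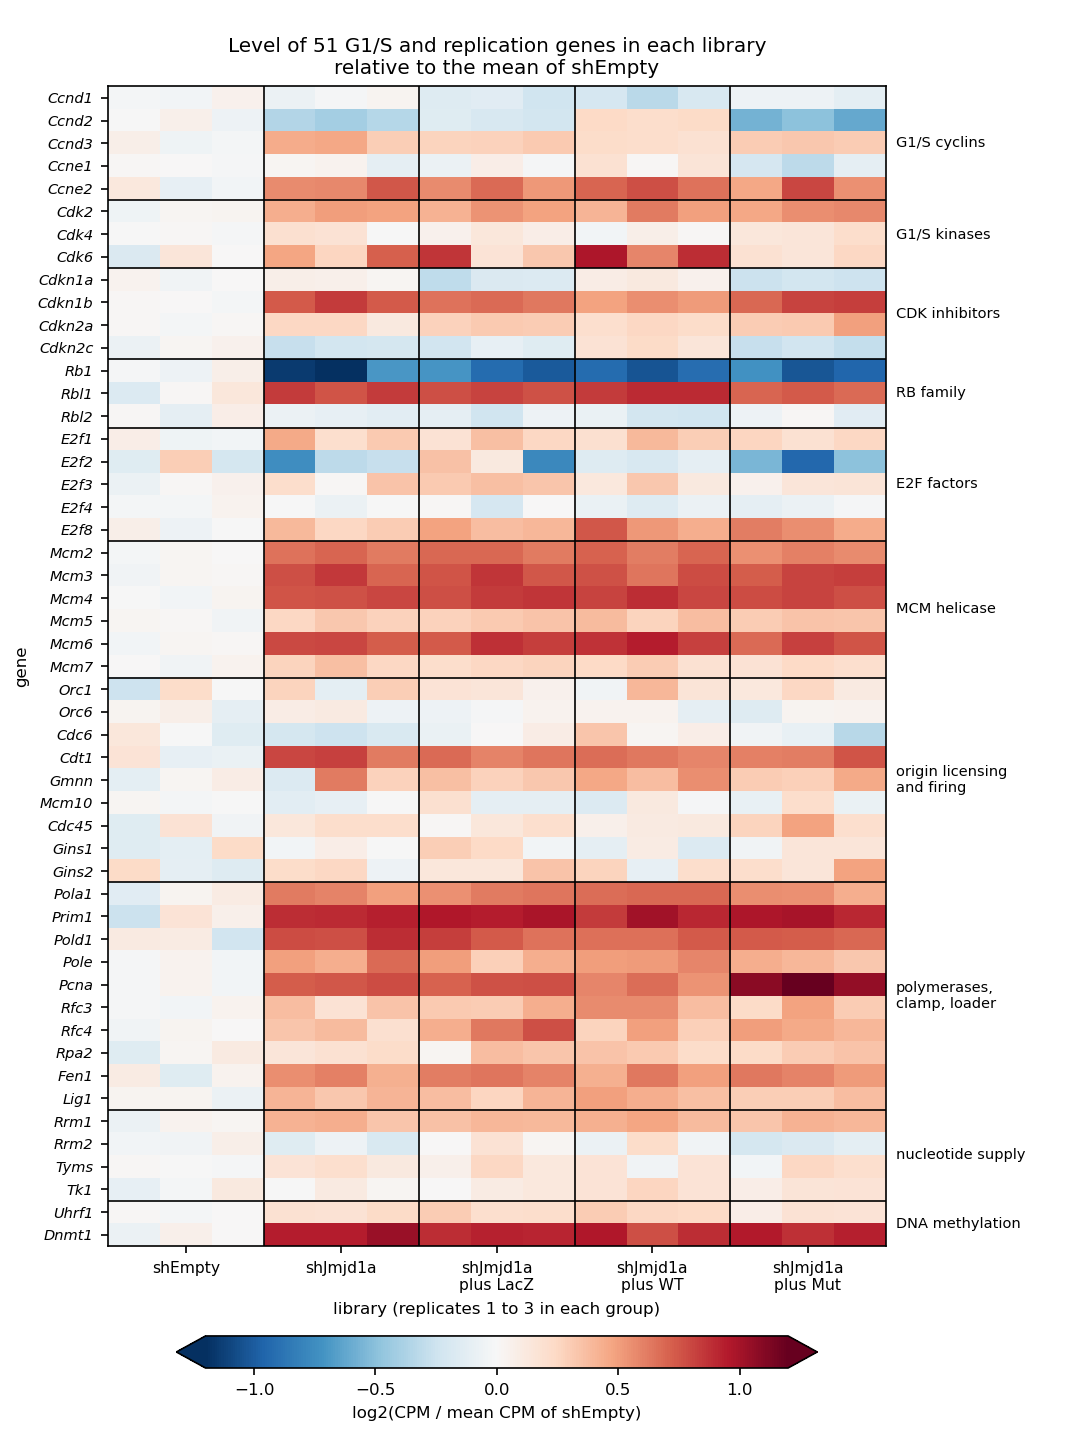
Level of the 51 genes tested (rows, grouped by role) in each of the 15 libraries (columns), as log2 of the CPM over the mean CPM of shEmpty. MCM genes, all polymerase and clamp genes but Rpa2, Cdt1, Rbl1, Cdkn1b and Dnmt1 are red in all 12 hairpin libraries and Rb1 is blue, whereas most licensing and firing genes stay pale.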

How the data were processed

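Genes and lists were chosen with earlier results of these data known. The authors made polyA libraries, used fastp, HISAT2 (mm9) and featureCounts, and deposited counts by Entrez Gene number that had not been normalized. Labels and methods name different kits (NEBNext Ultra and a directional Ultra II), and the gene annotation and strand setting of the counting are not given in the sources used here. Whether reads of overlapping genes on opposite strands were told apart is therefore not known. Besides the overlaps given above, this applies among others to Cdk4 (604 of 3249 exonic bp shared with Tspan31) and Rfc4 (194 of 1534 with Eif4a2). It also applies to Rbl2 (693 of 6963 with Aktip) and Cdc45 (209 of 2252 with Ufd1l).

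Symbols came from RefSeq (24191 of 26301 gene numbers matched), and mm9 (NCBIM37) positions and exon lengths from GENCODE M1. Groups came from the sample labels. Counts were normalized by TMM, filtered with filterByExpr (minimum count 10) and fitted with edgeR 4.0.16 in R 4.3.3 (quasi-likelihood F test, robust, bias-adjusted deviances, statmod 1.5.0, limma 3.58.1), with Benjamini-Hochberg adjustment over all genes tested: 12272 in the knockdown set (6 libraries), 12557 in the rescue set (9 libraries) and 12758 in the fit of all 15 libraries, used for shJmjd1a against plus LacZ and for plus WT against shEmpty. The last comparison and the count of libraries apart were chosen after the data were seen. Levels are CPM scaled over all 15 libraries, while fold changes come from each fit. Intervals are 95% intervals of the fit.

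Named genes were all G1/S genes tested, MCM2 to MCM7, the 5 replication genes with the largest called change in each comparison, the 3 further genes with the largest called change, and any gene behind a count of 5 or fewer. Other genes were named after their values were seen. The method was tested on simulated counts with changes larger than most of those reported here, and smaller changes were not simulated. Alternatives were RLE factors, no filter, the legacy quasi-likelihood method, a replicate block, DESeq2 1.42.0, a threshold of 0.01, other sets of libraries in the fit, and each library left out in turn. Other data of the study were not analysed here.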

Additional observations from a re-analysis of the deposited data

How the results depend on the processing

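No called gene changed direction under the settings tried. The median for JMJD1A(WT) against LacZ, -0.0058 with no test, was above 0 without plus LacZ replicate 2 or 3 or plus WT replicate 1 or 3. The number of genes lower with JMJD1A(WT) than with LacZ was 1 as reported, 2 with RLE size factors, without a filter, with a replicate block or with all 15 libraries in one fit, 0 at a threshold of 0.01 and 0 to 3 with 1 library left out. The number higher with the mutant than with LacZ was 2 with a replicate block and 1 to 2 with 1 library left out, and the number lower 1 to 4 with 1 library left out. Between the mutant and JMJD1A(WT), a threshold of 0.01 left 3 higher and 5 lower genes, and leaving out a library 2 to 6 higher genes. Between plus LacZ and shJmjd1a cells, DESeq2 and a threshold of 0.01 each left 1 higher gene, leaving out a library 1 to 3 higher and 1 to 2 lower genes, and the median log2 fold change was 0.0257 without a filter. With 1 library left out the medians ranged from 0.2497 to 0.2887 on knockdown, from -0.0088 to 0.0164 for JMJD1A(WT) against LacZ, from -0.0638 to -0.0098 for the mutant against JMJD1A(WT), from 0.0109 to 0.0242 for plus LacZ against shJmjd1a cells and from 0.2474 to 0.2935 for JMJD1A(WT) against shEmpty cells. The cause was not tested. The knockdown counts, 29 higher and 4 lower, ranged from 25 to 31 and from 3 to 4 over the settings.

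The counts gave little sign that replicate numbers pair the libraries, and the labels do not say whether they do. Deviations of same-numbered libraries from their group means correlated at -0.092 to 0.066, and 7 of 15 libraries correlated best with their own number. With a replicate block, 28 genes were higher and 3 lower on knockdown. Counting precision is lowest for genes such as Cdk6, E2f2 and Gins1, and depth was not matched between libraries.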
